A study of Mus musculus with 9 samples.

Results

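The interferon-gamma-inducible GTPases described here are 10 genes, 7 guanylate-binding proteins (Gbp2, Gbp3, Gbp4, Gbp5, Gbp7, Gbp8 and Gbp9) and 3 immunity-related GTPases of the regulatory M type (Irgm1, Irgm2 and Igtp, also called Irgm3). They were taken by gene symbol from the 20926 genes of the matrix, by a rule that holds no expression value. Earlier results of these data were known when they were chosen, so counts over the 10 are descriptions. Blood RNA was sequenced from 9 male DBA/1 mice labelled as 7 weeks old, with 3 mice in each of 3 groups. The paper gives this as the age at grouping, before immunisation and irradiation, so the blood was taken at a later age. Ctrl mice had neither arthritis nor irradiation. CIA mice had collagen-induced arthritis, a model of rheumatoid arthritis set off with chick type II collagen in Freund's adjuvant and a booster, and were not irradiated. CIA+THz mice were made arthritic in the same way, and their swollen ankles were exposed to 0.1 THz waves for 30 min per day on 14 days while they were kept under isoflurane. The sources do not say whether Ctrl or CIA mice were anaesthetised, so irradiation and anaesthesia cannot be told apart in a comparison with CIA+THz.

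Guanylate-binding proteins are large GTPases that gather on bacteria and on vacuoles that hold parasites or bacteria, break these membranes open and pass microbial products to inflammasomes, the complexes that activate inflammatory caspases. Regulatory immunity-related GTPases sit on the membranes of the cell itself, where they keep the effector members of their family inactive. Both families are induced when interferon-gamma, made mainly by T cells and NK cells, binds its receptor and JAK kinases pass the signal to transcription factors, IRF1 among them. The promoter elements of this response are the gamma-activated site (GAS) and the interferon-stimulated response element (ISRE), which IRF factors bind.

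On the GRCm38 build, Gbp2 (chromosome 3, 142620602 to 142638008), Gbp3 (142560026 to 142573209), Gbp5 (142493978 to 142522344) and Gbp7 (142530342 to 142550149) follow one another on the plus strand. Gbp4 (chromosome 5, 105115767 to 105139586), Gbp8 (105014150 to 105139540) and Gbp9 (105077630 to 105139539) are annotated on the minus strand with overlapping spans, so fragments of these 3 genes may have been divided between them by the authors' assembly. Irgm1 (chromosome 11, 48861968 to 48871683) is on the minus strand, and Igtp (58199556 to 58207591) and Irgm2 (58199618 to 58222782) overlap on the plus strand of the same chromosome, far from Irgm1, so that fragments of Igtp and Irgm2 may have been divided in the same way. All 10 are protein-coding, with 11 exons in the longest transcript of each guanylate-binding protein except Gbp8, which has 10, and 3 in each of the others. Exact copies of 100-base stretches in other genes were few, between 0% of the stretches of Gbp2 and Irgm1 and 10% of those of Gbp7, which are shared mainly with Gm43802.

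Promoters of 7 of the 10 genes were found in RefSeq (GRCm38.p6), 8 windows in all because Gbp3 has 2, each reaching from 250 bases before to 50 bases after a transcription start. Gbp4, Gbp8 and Gbp9 had no entry. The 3 windows printed here belong to the 2 genes that rose in CIA against Ctrl, Gbp2 and Irgm2, and to Igtp, the neighbour of Irgm2. Capitals mark every match to the GAS letters TTCNNNGAA and to the ISRE letters, which are GAAA, any 2 bases and GAAA again, searched on both strands. The GAS letters read the same on both strands, and no GAS match overlapped an ISRE match in the printed windows. The windows are chr3:142620413-142620712, chr11:58214727-58215026 and chr11:58199306-58199605, all on the plus strand and written 5′ to 3′.
Gbp2: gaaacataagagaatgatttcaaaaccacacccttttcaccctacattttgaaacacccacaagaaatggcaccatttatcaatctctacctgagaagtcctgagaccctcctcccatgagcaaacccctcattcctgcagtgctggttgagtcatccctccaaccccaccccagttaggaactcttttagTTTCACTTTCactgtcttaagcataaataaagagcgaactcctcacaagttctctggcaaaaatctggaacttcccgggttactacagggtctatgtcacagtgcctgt
Irgm2: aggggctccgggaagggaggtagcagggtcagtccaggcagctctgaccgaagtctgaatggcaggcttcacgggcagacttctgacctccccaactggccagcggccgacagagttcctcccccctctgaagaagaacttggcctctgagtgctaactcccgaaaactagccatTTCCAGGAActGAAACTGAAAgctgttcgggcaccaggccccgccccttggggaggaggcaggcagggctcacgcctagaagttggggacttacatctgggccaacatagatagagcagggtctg
Igtp: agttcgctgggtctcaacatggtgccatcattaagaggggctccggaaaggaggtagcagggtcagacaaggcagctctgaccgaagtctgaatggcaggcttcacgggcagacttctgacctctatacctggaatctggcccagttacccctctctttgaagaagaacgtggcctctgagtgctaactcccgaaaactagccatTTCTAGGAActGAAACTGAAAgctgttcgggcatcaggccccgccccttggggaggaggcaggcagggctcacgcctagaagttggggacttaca
In Irgm2 the GAS match covered positions -75 to -67 from the start and the ISRE match -64 to -55. In Igtp the same pair lay at -45 to -37 and -34 to -25. With a shift of 30 bases, 184 of 270 compared positions of these windows were identical (68.1%), and the longest identical run was 61 bases. Gbp2 had an ISRE match at -59 to -50 and no GAS match in the window. Of the 8 windows, 7 held an ISRE match, against 3.44% of the 32851 RefSeq windows of this length, and 4 held a GAS match, against 8.3%. The exception for the ISRE letters was the second window of Gbp3. These genes are known interferon targets, so the counts describe the windows and test nothing, and a letter match does not show that a factor binds there.

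**Figure D1:**
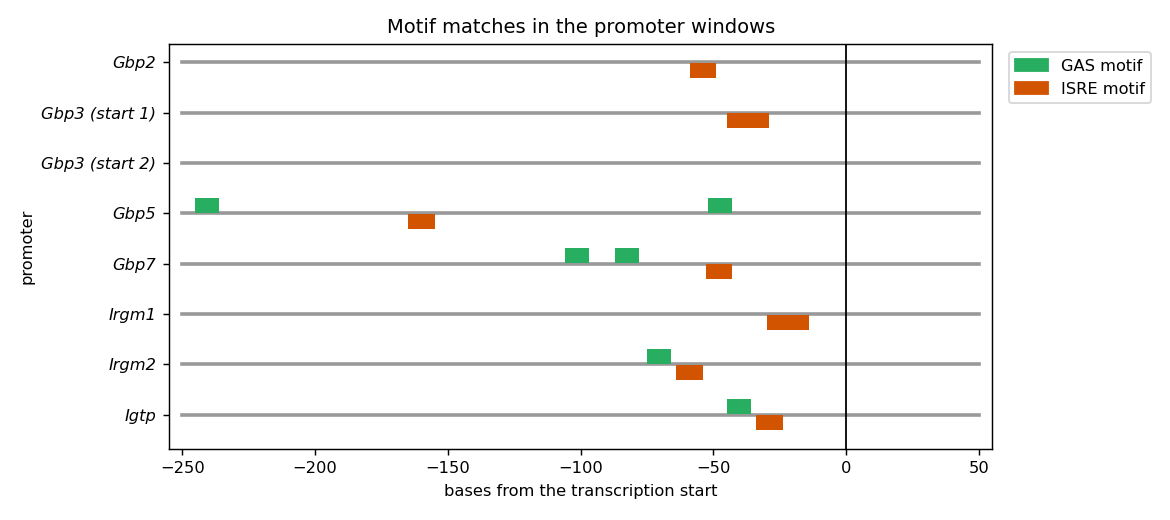
Positions of GAS (green) and ISRE (orange) letter matches, in bases from the transcription start, in the 8 RefSeq promoter windows of 7 GTPase genes, where each grey line is 1 window. ISRE matches lie in 7 of the 8 windows, and in Irgm2 and Igtp a GAS match stands just before the ISRE match.

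Expression is given as rescaled FPKM, the authors' fragment number scaled by transcript length and library total, divided by 1 more factor per library (0.847 to 1.24) so that libraries can be compared. The number of fragments behind a value is unknown, because FPKM holds no counts, and between 11801 and 12807 genes were above 0 per library, with all CIA+THz libraries (12449 to 12807) above the others. Although the samples are labelled blood leukocyte, Alas2, an enzyme of red cell precursors, took 11.4% to 16.7% of the summed FPKM of a library. Marker genes of T cells, B cells, NK cells, neutrophils and monocytes were also present, with the sole exception of the NK cell receptor Klra8, which is listed at 0 in every library. In blood as a whole, fewer cells of a type and less RNA per cell cannot be told apart. A gene passed the criterion when limma's p before adjustment was under 0.05 and its log2 fold change was beyond 0.67 in either direction, and Benjamini-Hochberg adjusted p-values over the 12366 genes tested are given beside it. All 10 GTPase genes were tested. Fold changes were taken on the log2(rescaled FPKM + 0.1) scale and are understated for genes near 0.

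Since FPKM is scaled by length, levels can be compared between genes. Igtp was the highest of the 10, with a mean of 85.5 over the 9 libraries and a range of 72.2 to 113. Gbp9 (mean 28.1, range 17.3 to 35.1) and Gbp2 (mean 22.6, range 12.4 to 35.1) came next, and their ranges overlapped. Gbp3 (9.53), Irgm1 (9.08), Gbp4 (8.78) and Irgm2 (7.39) had similar means, and each of these ranges overlapped the next. Gbp7 had a mean of 3.57 and stayed below all 4 of those genes, with a highest library at 4.90. Gbp5 (0.818) was lower again, and Gbp8 (0.324) was above 0 in only 3 of the 9 libraries. Gbp8 met the minimum mean of 0.1 for testing mainly through CIA+THz, with a group mean of 0.863, against 0 in Ctrl and 0.109 in CIA. Its calls and its place in the counts over the 10 are therefore descriptions only.

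**Figure D2:**
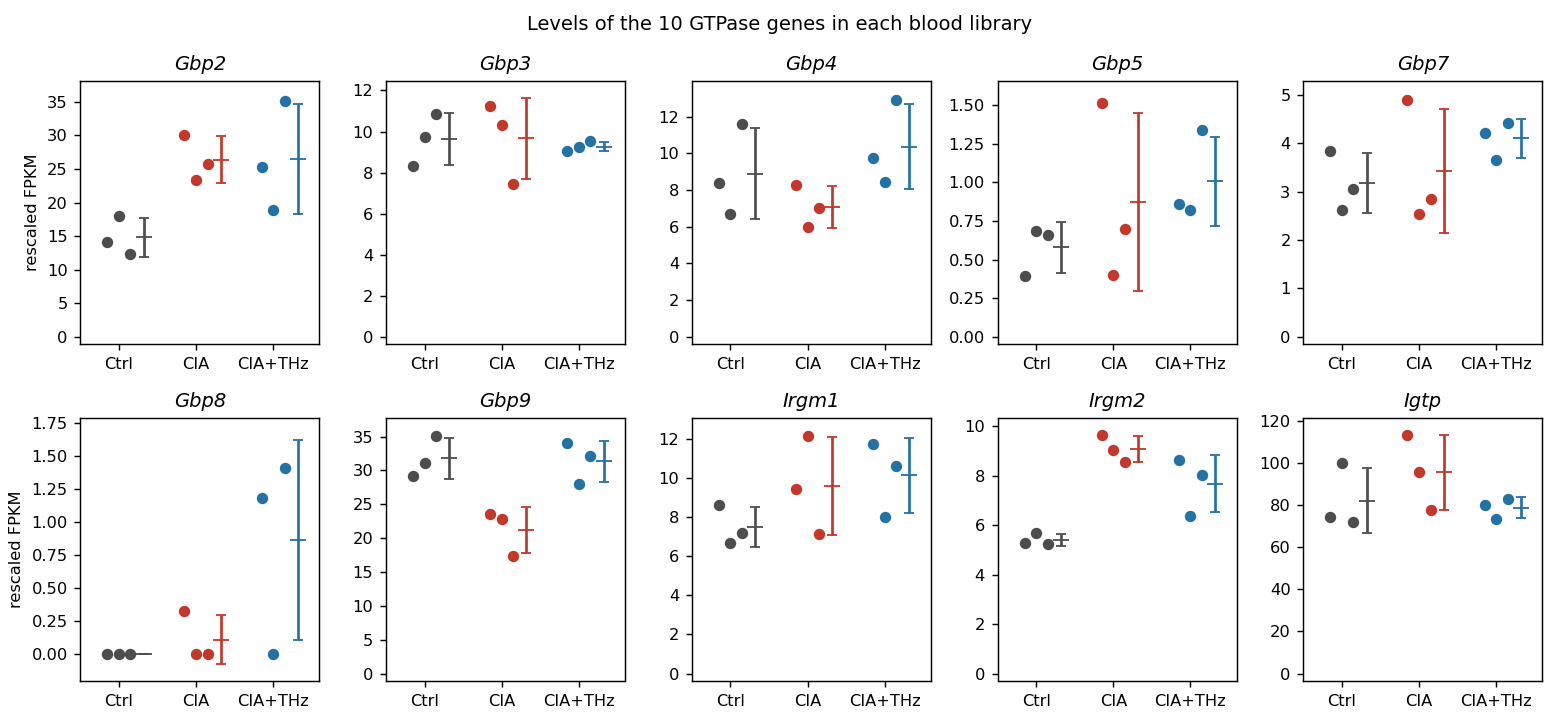
Rescaled FPKM (vertical axes, each from 0 and with its own scale) of the 10 GTPase genes in Ctrl, CIA and CIA+THz blood; points are libraries in replicate order and bars show mean ± SD (n = 3). All CIA points of Gbp2 and Irgm2 lie above all Ctrl points, and all CIA points of Gbp9 lie below those of both other groups.

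Across the 3 groups, limma's F-test put 3 of the 10 genes under a p of 0.05 before adjustment, against 21.3% of all genes tested. They were Gbp9 (Benjamini-Hochberg adjusted p = 0.0777 by limma), Irgm2 (adjusted p = 0.083) and Gbp2 (adjusted p = 0.0884). None of the 10 had an adjusted p under 0.05, which 2.53% of all genes had. Gbp8 (adjusted p = 0.304) and Gbp4 (adjusted p = 0.363) followed. The 3 leading genes took 2 different courses, since Gbp2 and Irgm2 were lowest in Ctrl and Gbp9 was lowest in CIA.

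The comparison of CIA with Ctrl asks how the blood of arthritic mice differed from that of controls. The sources do not say whether Ctrl mice were given adjuvant, so the injections and the arthritis cannot be told apart. Gbp2, which is recruited to vacuoles of intracellular parasites and helps to lyse bacteria in the cytosol, rose. Its level in the Ctrl libraries was 14.1, 18.1 and 12.4, and in the CIA libraries it was 30.1, 23.3 and 25.7. The groups did not overlap. The means were 14.8 ± 2.92 (SD, n = 3) and 26.4 ± 3.44, a log2 fold change of 0.84 (SE 0.18; Benjamini-Hochberg adjusted p = 0.0969 by limma).

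Irgm2, a regulatory GTPase of the Golgi membrane, rose as well. It was at 5.29, 5.68 and 5.23 in Ctrl and at 9.63, 9.03 and 8.56 in CIA, with no overlap and little spread within either group. The log2 fold change was 0.74 (SE 0.16; limma adjusted p = 0.0993). The calls of Gbp2 and Irgm2 both held when any 1 of the 6 libraries was left out. The span of Irgm2 overlaps that of Igtp, whose level is far higher, and the part of this overlap in the call was not tested. The summed level of Irgm2 and Igtp gave a log2 fold change of 0.25 (SE 0.18, limma adjusted p = 0.5) and did not pass. Igtp makes up most of that sum (mean 85.5 against 7.39 for Irgm2 over the 9 libraries). The sum therefore follows Igtp and cannot decide the call of Irgm2. In a fit of all 9 libraries Irgm2 had an adjusted p of 0.0408, the sole GTPase gene under 0.05 there, and with a pseudocount of 1 its log2 fold change was 0.65, under the fold threshold.

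Thus 2 of the 10 genes passed the criterion, both higher, against 9.04% of all genes tested, made up of 4.79% higher and 4.25% lower. No GTPase gene had an adjusted p under 0.05, which 0.154% of all genes had, and 3 had a p under 0.05 before adjustment, as 17.3% of all genes did. The remaining one of those 3 was Gbp9. It was at 29.2, 31.1 and 35.1 in Ctrl and at 23.5, 22.8 and 17.3 in CIA, so that all CIA libraries were below all Ctrl libraries, as for 11.8% of all genes (another 11.8% had the opposite order, as Gbp2 and Irgm2 did). Its log2 fold change of -0.59 (SE 0.16; limma adjusted p = 0.15) did not reach the fold threshold, but without CIA replicate 1 it was -0.67 and passed. As Gbp4, Gbp8 and Gbp9 overlap, their summed level was tested too, and it gave -0.52 (limma adjusted p = 0.172), also under the threshold.

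The other 7 genes did not pass in CIA against Ctrl. Igtp, a regulatory GTPase of the endoplasmic reticulum and lipid droplets, was at 74.5, 99.9 and 72.2 in Ctrl and at 113, 95.7 and 77.5 in CIA (log2 fold change 0.22, SE 0.19, limma adjusted p = 0.591). Irgm1, which controls autophagy and lysosomes, was at 8.64, 6.66 and 7.18 in Ctrl and 9.44, 12.2 and 7.16 in CIA (0.33, SE 0.23, limma adjusted p = 0.506). For both genes the groups overlapped, and CIA replicate 3 lay within the Ctrl range. Gbp5, which promotes assembly of the NLRP3 inflammasome, had 1.51 in CIA replicate 1 but 0.403 and 0.698 in the others, against 0.392, 0.685 and 0.657 in Ctrl. Gbp3, Gbp4 and Gbp7 had log2 fold changes of -0.01, -0.30 and 0.07, and Gbp8 is listed at 0 in all Ctrl libraries and in 2 of 3 CIA libraries.

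Over the 10 genes, 7 were higher in CIA and 3 lower (8 and 2 with FPKM as deposited), with a median log2 fold change of 0.27, where 49.3% of all genes were higher and their median was -0.01. Without CIA replicate 1 the median of the 10 was -0.03 and 5 were lower. Gbp8 is then listed at 0 in every library of both groups, so it was neither higher nor lower. The marker genes of blood cells differed between the same libraries. All 12 monocyte markers were higher in CIA, 7 of them past the criterion, and their summed level was 3450 to 3780 in Ctrl, 5795 to 6460 in CIA and 3919 to 4264 in CIA+THz, with no marker at 0. Lyz2 made up most of this sum, at 2529 to 2812 in Ctrl, 4436 to 4916 in CIA and 2851 to 3078 in CIA+THz. All 6 NK cell markers tested were lower in CIA, 5 past the criterion, with sums of 150 to 192 in Ctrl, 55.5 to 119 in CIA and 100 to 151 in CIA+THz. Gzma and Prf1 made up most of the NK cell sums. The part of these cells in the levels of Gbp2, Irgm2 and Gbp9 was not tested.

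**Figure D3:**
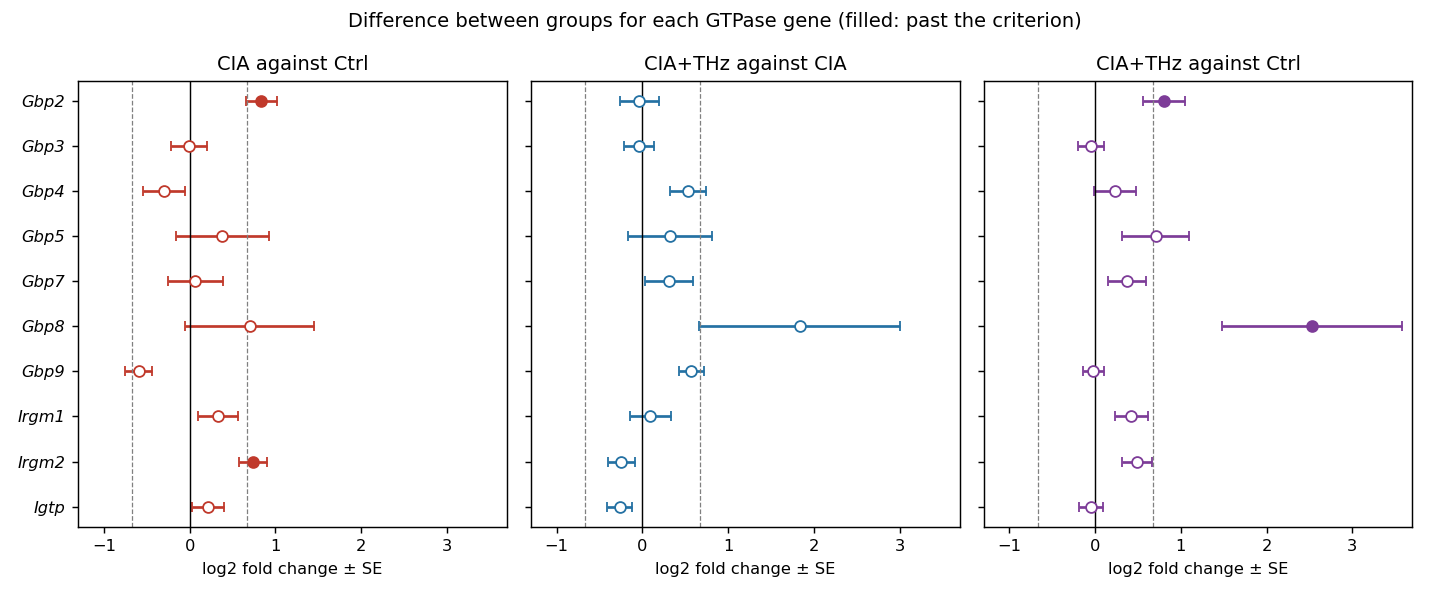
Log2 fold change ± SE (horizontal axis) of each GTPase gene in the 3 comparisons, with filled points for genes past the criterion and dashed lines at the fold threshold of 0.67 in either direction. Gbp2 and Irgm2 are filled in CIA against Ctrl and none is filled in CIA+THz against CIA; the value of Gbp8 against Ctrl depends on the pseudocount, because Ctrl is listed at 0.

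The comparison of CIA+THz with CIA asks what irradiation changed in arthritic mice. None of the 10 GTPase genes passed the criterion, which 4.54% of all genes did, 2.94% higher and 1.6% lower. By p under 0.05 before adjustment, with no fold threshold, 2 of the 10 were found, against 13.2% of all genes, and neither any of the 10 nor any other gene had an adjusted p under 0.05. The 2 were neighbours on chromosome 5. Gbp9 was at 23.5, 22.8 and 17.3 in CIA and at 34.0, 28.05 and 32.1 in CIA+THz, and Gbp4 was at 8.27, 5.99 and 7.00 in CIA and at 9.73, 8.45 and 12.9 in CIA+THz. For both genes every CIA+THz library was above every CIA library, as for 9.38% of all genes, while none of the 10 had every CIA+THz library below every CIA library, as 10.2% of all genes had.

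The log2 fold change of Gbp9 was 0.57 (SE 0.15; limma adjusted p = 0.238), and that of Gbp4 was 0.53 (SE 0.21; limma adjusted p = 0.348). The sum of Gbp4, Gbp8 and Gbp9 gave 0.59 (SE 0.14; limma adjusted p = 0.231). The CIA+THz level of Gbp9 overlapped that of Ctrl, with means of 31.4 ± 3.02 (SD, n = 3) and 31.8 ± 3.03. Gbp8 was at 0.327, 0 and 0 in CIA and at 1.18, 0 and 1.40 in CIA+THz. Thus the gene was seen in 1 CIA library and 2 CIA+THz libraries, and the difference did not pass (limma adjusted p = 0.535).

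The genes that had risen in CIA did not differ from it detectably. Gbp2 was at 25.4, 18.9 and 35.1 in CIA+THz, on both sides of the CIA values (log2 fold change -0.03, SE 0.23, limma adjusted p = 0.968). Irgm2 was at 8.63, 6.38 and 8.03, with 1 library within the CIA range and 2 below it (-0.25, SE 0.16, limma adjusted p = 0.534). Igtp was at 80.2, 73.2 and 82.9 (-0.26, SE 0.15, limma adjusted p = 0.486), and Irgm1 at 11.7, 8.03 and 10.6 (0.09). These p-values do not show that the groups were alike.

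The direction of several genes in this comparison depended on the scaling. The rescaling took 0.28 (log2) off every difference between these groups. With rescaled values 6 of the 10 stood higher after irradiation and 4 lower (median 0.20, against 0.03 and 52.9% higher for all genes). With FPKM as deposited all 10 were higher, Gbp9 (0.85) and Gbp4 (0.81) passed the criterion, and the median of all genes itself was 0.29. The calls over all genes were then 1133 higher and 66 lower, in place of 363 and 198.

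Marker genes moved here too. All 13 T cell markers stood higher in irradiated mice, 1 of them (Cd5) past the criterion, and their summed level was 517 to 588 in Ctrl, 416 to 467 in CIA and 525 to 694 in CIA+THz. All 6 NK cell markers tested were higher too, 2 of them past the criterion (Klre1 and Prf1), with the sums given for CIA against Ctrl. Of the 12 monocyte markers 11 were lower (8 with FPKM as deposited), and 3 of them, Fn1, Chil3 and Ms4a6d, passed, none of which did with FPKM as deposited. Neutrophil markers were lower in 12 of 12 (10 of 12 with FPKM as deposited), 4 past the criterion, with sums of 12678 to 21421 in Ctrl, 14771 to 19457 in CIA and 10854.5 to 12339 in CIA+THz. S100a9 made up most of the neutrophil sums. No T cell, neutrophil or monocyte marker was at 0 in any library, and the part of these cells in the levels of Gbp4 and Gbp9 was not tested.

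In CIA+THz against Ctrl, which shares its libraries with the other comparisons, 2 of the 10 passed, both higher, against 7.88% of all genes (4.64% higher and 3.24% lower), and none had an adjusted p under 0.05, which 0.105% of all genes had. Gbp2 rose, with a log2 fold change of 0.80 (SE 0.24; limma adjusted p = 0.167), and every CIA+THz library was above every Ctrl library, as for 11.9% of all genes, whereas 12% of all genes and none of the 10 had the opposite order. The call was lost without Ctrl replicate 3 (0.68, with p above 0.05 before adjustment) and without CIA+THz replicate 3 (0.58, under the fold threshold). Gbp8 passed as well (limma adjusted p = 0.264), but it is listed at 0 in all 3 Ctrl libraries and in CIA+THz replicate 2. No fold is given for it. The filter on low genes kept Gbp8 mainly through CIA+THz, so its call here is not evidence of a rise. Leaving out any of Ctrl replicates 1 to 3 or CIA+THz replicates 1 or 3 ended that call. Irgm2 kept a higher level than in Ctrl without passing (0.49, SE 0.17, limma adjusted p = 0.209), and its groups did not overlap. Neither did those of Gbp5, at 0.858, 0.823 and 1.34 in CIA+THz (limma adjusted p = 0.386). Of the 10 genes, 7 were higher and 3 lower, and all 10 were higher with FPKM as deposited, where the median of all genes was 0.33.

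Because single libraries weighed on these values, the rank of each library within its group was counted. CIA replicate 1 was the highest CIA library for 9 of the 10 genes, all but Irgm1, and for 33.5% of all genes tested. CIA+THz replicate 2 was the lowest of its group for 9 of the 10, all but Gbp3, and for 31.6% of all genes, and CIA+THz replicate 3 was the highest for 7. In Ctrl each library was the lowest for 3 of the genes. Most of the GTPase genes thus shared their highest CIA library and their lowest CIA+THz library, and no label of the samples goes with that order. The lowest CIA library was not shared, being replicate 2 for 4 genes and replicate 3 for 5. The 10 genes come from the same libraries and some have overlapping spans, so they are not independent counts.

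**Figure D4:**
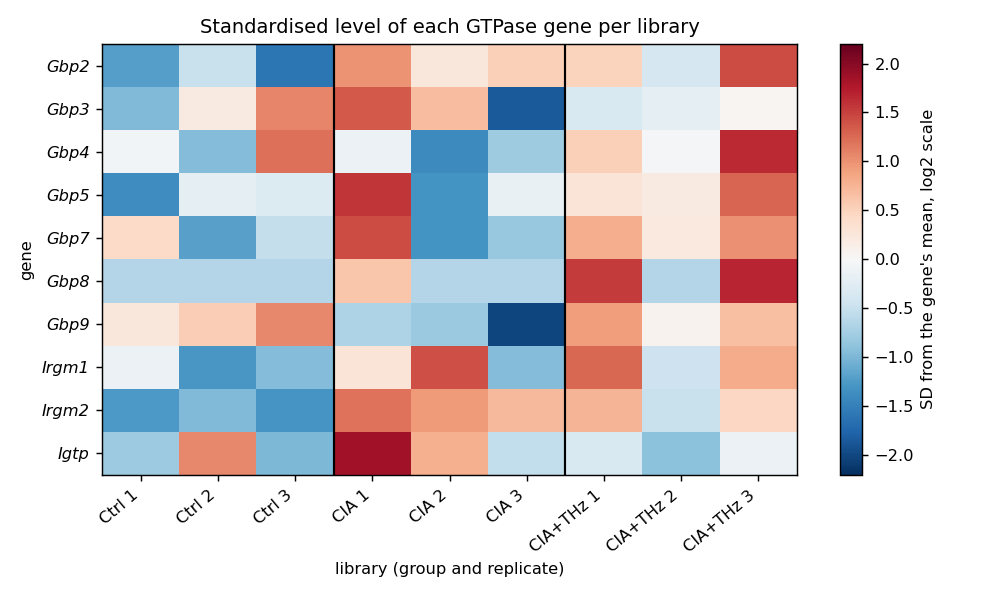
Standardised level of each GTPase gene (rows) in the 9 libraries (columns), in SD units from the gene's own mean on the log2 scale, with black lines between Ctrl, CIA and CIA+THz. CIA replicate 1 is the reddest CIA column, being the highest for 9 of 10 genes, and CIA+THz replicate 2 is the palest of its group, being the lowest for 9 of 10.

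Ratios within a library do not depend on the scaling between libraries, and 3 gene pairs were chosen after their values were seen. Gbp9 stood at 2.07, 1.72 and 2.84 times the level of Gbp2 in Ctrl, at 0.780, 0.975 and 0.672 times in CIA, and at 1.34, 1.48 and 0.913 times in CIA+THz. The order of these genes was thus turned round in all 3 CIA libraries and in CIA+THz replicate 3. The log2 ratio was lower by 1.43 in CIA than in Ctrl, with a two-sided exact permutation p of 0.1, the smallest that 3 against 3 allows (adjusted p = 0.225 over 9 tests). CIA+THz against CIA gave 0.61 (exact permutation p = 0.2, adjusted p = 0.36). CIA+THz against Ctrl gave -0.83 (exact permutation p = 0.1, adjusted p = 0.225), with every CIA+THz ratio below every Ctrl ratio.

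The ratio of Irgm2 to Igtp, whose promoters printed above hold the same ISRE match and GAS matches that differ within their free bases, was 0.0710, 0.0569 and 0.0725 in Ctrl. In CIA it was 0.0850, 0.0943 and 0.110, and in CIA+THz 0.108, 0.0872 and 0.0969. Every library of both arthritic groups was above every Ctrl library, with log2 differences of 0.53 and 0.54 (exact permutation p = 0.1 for each, adjusted p = 0.225). How the authors' assembly divided the fragments of these overlapping genes is not given in the sources used here, and its part in the ratio was not tested. The ratio of Gbp9 to Gbp4 overlapped between all groups (exact permutation p = 0.4, 0.9 and 0.5), and its means were 3.71 ± 0.835 (SD, n = 3) for Ctrl, 3.04 ± 0.687 for CIA and 3.10 ± 0.541 for CIA+THz.

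Further interferon-inducible GTPase genes were measured beside the 10. Of 9 listed (Gbp2b, Gbp6, Gbp10, Gbp11, Ifi47, Tgtp1, Tgtp2, Gm12250 and Gvin1), 8 were tested, and Gbp2b was too low. None passed in CIA against Ctrl (9.04% of all genes did), where 2 were higher, or in CIA+THz against Ctrl (7.88% of all genes did). In CIA+THz against CIA 1 passed, where 4.54% of all genes did. It was Gbp10, of the chromosome 5 cluster, which rose from 1.04, 1.19 and 1.60 to 2.58, 1.84 and 2.84. Its log2 fold change was 0.87 (SE 0.29, limma adjusted p = 0.301). However, 70.9% of its 100-base stretches also occur in other genes, so its level is uncertain. In that comparison 6 were higher and 2 lower. With FPKM as deposited 7 were higher and 1 lower, and Gbp11 passed there (0.80) and in CIA+THz against Ctrl (0.76).

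The interferon-gamma pathway was examined with a list of 19 genes, of which 17 were tested (Cxcl10 and Ido1 were too low). The list holds targets and feedback genes of the pathway beside its ligand, receptor and kinase genes. Its counts therefore do not describe the control of the GTPases alone. In CIA against Ctrl 12 were higher and 5 lower, with a median log2 fold change of 0.42. Of these, 1 (Socs1) rose past the criterion, against 9.04% of all genes tested. The ligand gene Ifng itself is listed at 0 in all CIA libraries and in 2 of 3 Ctrl libraries, with 1.15 in Ctrl replicate 1 and 0.182, 0.255 and 0 in CIA+THz. The receptor genes Ifngr1 and Ifngr2 had log2 fold changes of 0.39 and 0.38, and the kinase genes Jak1 and Jak2 had -0.46 and -0.46, none past the criterion.

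Irf1, a transcription factor gene of the pathway, was at 50.2, 49.96 and 46.4 in Ctrl and 83.2, 74.7 and 71.6 in CIA (0.64, SE 0.11, limma adjusted p = 0.0669), just under the fold threshold, and at 66.0, 51.4 and 72.9 in CIA+THz.

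Socs1, a feedback inhibitor of JAK signalling, rose in CIA (1.03, limma adjusted p = 0.213, a call lost without Ctrl replicate 1 or CIA replicate 1) and in CIA+THz (0.90, limma adjusted p = 0.247) against Ctrl. Ciita, the regulator of MHC class II genes, rose in CIA+THz against Ctrl (0.77, limma adjusted p = 0.121), and the chemokine gene Cxcl9 passed there too but is listed at 0 in Ctrl. In all, 13 of the 17 were higher in that comparison and 3 passed, against 7.88% of all genes. None passed in CIA+THz against CIA (4.54% of all genes did), where 10 were higher and 7 lower (as deposited, the FPKM gave 15 and 2). The value nearest to the threshold of those always named was that of Ifngr2, at 198, 226 and 185 in CIA and 142, 114 and 133 in CIA+THz (-0.65, SE 0.12, limma adjusted p = 0.196).

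Genes that act before or after the GTPases were counted in the same way. Of 10 genes for the production of interferon-gamma, 9 were tested. Il12rb2, a receptor subunit for IL-12 on T cells and NK cells, was the sole one to pass. It did so in CIA against Ctrl, as 9.04% of all genes did. It fell from 2.09, 1.46 and 2.36 in Ctrl to 0.638, 0.702 and 0.562 in CIA (-1.47, SE 0.36, limma adjusted p = 0.119). There were 17 partner genes of the inflammasome and of autophagy, which load or read the GTPases. None passed in CIA against Ctrl or in CIA+THz against CIA (9.04% and 4.54% of all genes did). In CIA+THz against Ctrl 2 passed, against 7.88% of all genes. In CIA+THz against Ctrl the inflammasome sensor gene Nlrp3 (-0.77, limma adjusted p = 0.102) and Gabarapl2, of the autophagy machinery (-0.93, limma adjusted p = 0.121), fell. With FPKM as deposited neither passed, at -0.46 for Nlrp3 and -0.62 for Gabarapl2 on the log2 scale.

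**Figure D5:**
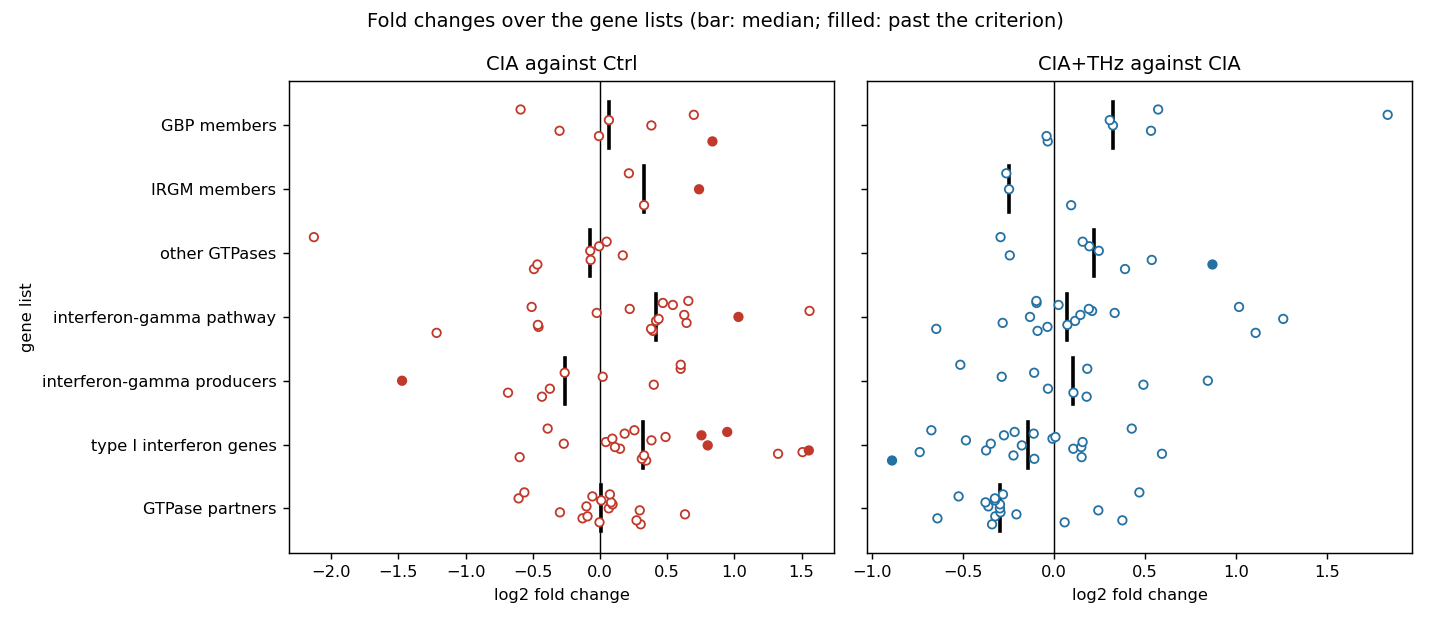
Log2 fold changes (horizontal axes) of every tested gene in 7 gene lists in CIA against Ctrl and in CIA+THz against CIA, with a black bar at each list's median and filled points for genes past the criterion. In CIA against Ctrl the pathway list has a median of 0.42 and the guanylate-binding proteins are spread from -0.59 to 0.84.

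The 5 genes outside these lists whose log2 level followed the mean of the 10 standardised GTPase levels most closely over the 9 libraries were Psme2 (Pearson r = 0.941), Dpp3 (0.938), Zfp866 (0.914), Lrrc41 (0.897) and Fntb (0.897). Psme2 encodes a subunit of the proteasome activator PA28. It was at 14.4, 13.7 and 15.05 in Ctrl, at 19.4, 15.5 and 13.2 in CIA, and at 16.7, 13.4 and 20.3 in CIA+THz, high in the same libraries as the GTPase genes. Each of the 10 was also set against the mean of the other 9, which gave r = 0.867 for Gbp8 and 0.718 for Gbp5 as the closest and 0.108 for Gbp9 as the least close. Gbp8 was above 0 in only 3 libraries and Gbp5 was near 0 (mean 0.818), so these 2 values are uncertain. These correlations are descriptions, and the points share the library, its depth and its mix of cells.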

How the data were processed

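RNA from the blood of 9 mice was sequenced by the authors in paired-end mode, and 1 FPKM column per mouse was deposited. The submitters' processing notes name bcl2fastq 2.0, HISAT2, StringTie, DESeq2 and the mm10 build, without their order. Strand, multi-mapping and filter settings are not given in the sources used here. To compare libraries, columns were scaled by median-of-ratios factors from the 10312 genes present in all 9. After addition of 0.1 and log2 transformation, the 12366 genes with a mean of at least 0.1 were fitted with limma 3.58.1 (eBayes, trend on) in R 4.3.3, on 6 libraries per pair of groups and on all 9 for the F-test. The criterion (p under 0.05 before adjustment, log2 fold change beyond 0.67) follows the study's methods. The script was tested on simulated data. Low FPKM values showed no whole-read steps, so depth is unknown and no counting interval is given. Genes were matched by symbol to GENCODE M21, and promoters came from RefSeq. The members and gene lists were chosen with earlier results of these data known. Named genes were the 10, Ifng, Ifngr1, Ifngr2, Jak1, Jak2 and Irf1, up to 5 genes per list past the criterion, and the 5 closest in pattern. A gene of the rule is not reported here and was left out of its list. Libraries are different mice, and replicate numbers pair none of them. Alternatives changed the scaling, pseudocount, filter, trend, fit, block, call rule and libraries.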

Additional observations from a re-analysis of the deposited data

How the results depend on the processing

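The calls of Gbp2 and Irgm2 in CIA against Ctrl held without any 1 library, without a variance trend and with other filters on low genes. No fit in pairs gave an adjusted p under 0.05 for a GTPase gene: the Benjamini-Hochberg rule left 0 in every comparison and 0 of the pathway genes, and 0 in the F-test. With FPKM as deposited, 2 GTPase genes passed in CIA+THz against CIA (9.67% of all genes), 6 in CIA+THz against Ctrl (13.9% of all genes) and 5 in the F-test (26.7% of all genes). Pathway genes that passed then numbered 3 in CIA against Ctrl (8.65% of all genes) and 8 in CIA+THz against Ctrl (13.9%). Log2 fold changes then changed sign for Gbp3 in CIA against Ctrl (0.022), for Gbp2 (0.24), Gbp3 (0.23), Irgm2 (0.027) and Igtp (0.015) in CIA+THz against CIA, and for Gbp3 (0.26), Gbp9 (0.29) and Igtp (0.26) in CIA+THz against Ctrl.

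A pseudocount of 1 left 1 GTPase gene in CIA against Ctrl (6.6% of all genes) and 1 pathway gene in CIA+THz against Ctrl (5.28% of all genes). In CIA+THz against Ctrl, 1 GTPase gene passed without a filter (6.46% of all genes) or with a minimum mean of 1 (8.1%). The sum of Gbp4, Gbp8 and Gbp9 also left 1 there. With Irgm2 and Igtp summed, 1 passed in CIA against Ctrl. Both sums were chosen after seeing the data. Without the fold threshold, also chosen after seeing the data, 2 passed in CIA+THz against CIA (13.2% of all genes). In that comparison 1 pathway gene passed without a filter (3.83% of all genes). With the replicate number as a block, 2, 0 and 2 GTPase genes passed in the 3 comparisons, as without it. Of all genes, 8.68%, 4.09% and 7.82% passed with the block. The replicate numbers do not pair these mice.

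Leaving out each library in turn gave 2 to 3 GTPase genes in CIA against Ctrl, 0 to 1 in CIA+THz against CIA (Gbp8 without CIA+THz replicate 2), 0 to 2 in CIA+THz against Ctrl, and 0 to 3, 0 to 2 and 1 to 5 pathway genes. Of all genes, 7.81% to 10.2%, 3.91% to 6.02% and 5.85% to 12% then passed in the 3 comparisons. The pathway count in CIA against Ctrl was 0 without Ctrl replicate 1 or CIA replicate 1 and 3 without CIA replicate 3, and in CIA+THz against Ctrl it was 1 without Ctrl replicate 1 and 5 without CIA+THz replicate 2. In CIA against Ctrl the log2 fold change then ran from -0.13 to 0.17 for Gbp3, -0.21 to 0.25 for Gbp7 and -0.068 to 0.77 for Gbp5, and the median of the 10 from -0.034 to 0.40. In CIA+THz against CIA it ran from -0.26 to 0.18 for Gbp2, -0.22 to 0.077 for Gbp3, -0.068 to 0.77 for Gbp5 and -0.098 to 0.28 for Irgm1. In CIA+THz against Ctrl it ran from -0.15 to 0.041 for Gbp3, -0.079 to 0.059 for Gbp9 and -0.13 to 0.10 for Igtp. The cause was not tested for any of these shifts.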

Other observations

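Genes of the type I interferon response were counted in the same libraries. Of 20, all were tested, and 17 were higher in CIA than in Ctrl, with a median log2 fold change of 0.32. Oas1a (1.55), Oasl2 (0.80), Ifi44 (0.76) and Zbp1 (0.95) rose past the criterion, with Benjamini-Hochberg adjusted p between 0.138 and 0.241 by limma. Of all genes tested, 9.04% passed in that comparison. Zbp1, a sensor of nucleic acids, was at 4.40, 3.15 and 4.31 in Ctrl, at 8.74, 8.55 and 5.94 in CIA and at 8.31, 5.01 and 6.74 in CIA+THz. Isg15, a ubiquitin-like protein gene, fell in CIA+THz against CIA (-0.89, SE 0.29, limma adjusted p = 0.289), from 52.3, 29.1 and 27.2 to 24.4, 15.4 and 17.1. With FPKM as deposited its log2 fold change was -0.61, under the fold threshold.

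Gvin1, a very large interferon-inducible GTPase gene named here after its values were seen, was between 158 and 205 in 7 libraries but at 2.80 in CIA replicate 1 and 1.199 in CIA+THz replicate 3. Of its 100-base stretches, 97.8% also occur in other genes.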
